A study of Mus musculus with 9 samples.

Results

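The retinoblastoma family and the E2F transcription factors it controls form the switch by which a cell commits to copying its DNA. The family was followed here through 10 genes, E2f1, E2f2, E2f3, E2f4, E2f5, E2f7, E2f8, Rb1, Rbl1 and Rbl2, out of 19938 genes that had a probe set of their own on the array. They were chosen by name, as were the gene lists used below, but with earlier results of these data known. Their counts are therefore not those of an unselected set, and the shares of all tested genes beside them serve only for scale. For each gene the probe set assigned to it alone was used, or, of several, the one with the highest mean over all arrays. All 10 were found, and all 10 were among the 16323 genes bright enough to be tested. The mice were at postnatal day 13, and RNA of 3 samples was read for each of 3 groups: cerebellum labelled wildtype, cerebellum labelled SufuKO, and medulloblastoma, a tumour of the cerebellum, labelled Ptch1KO. Sufu and Ptch1 both restrain the Hedgehog pathway. The labels name no strain, allele, Cre driver or sex, and leave unsaid whether each sample was a separate animal, so the p-values cover only the spread of these 3 samples a group, and part of it may be technical. Each sample was read on an Affymetrix Mouse Gene 1.0 ST array, and the values are log2 values of arbitrary array units.

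E2F proteins bind promoters of genes for DNA synthesis and division, and most of them do so in a pair with a DP protein. E2F1, E2F2 and E2F3 chiefly activate. E2F4 and E2F5 chiefly repress, and do so in company with a pocket protein, the name given to pRB (Rb1), p107 (Rbl1) and p130 (Rbl2). E2F7 and E2F8 are atypical members that repress without a DP partner or a pocket protein. In a resting cell p130 and E2F4 hold division genes silent together with the MuvB proteins, in an assembly called DREAM. When cyclin D and its kinases phosphorylate the pocket proteins, E2F is freed, and several E2F and pocket protein genes are themselves turned on by E2F. In the cerebellum the cells that pass through this switch after birth are mainly the granule neuron progenitors of the outer layer, which divide in response to Sonic hedgehog.

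The promoters of these genes were read for the E2F site, the sequence that E2F proteins are known to bind. RefSeq promoter windows of assembly GRCm38.p6, each of 300 bases with 250 before and 50 from the annotated start on, were matched by symbol for 7 of the 10 genes, with the exceptions of E2f4, E2f5 and Rb1. The site was searched as TTTCCCGC, TTTCGCGC, TTTGCCGC or TTTGGCGC on either strand. It was present in 4 of the 9 windows of these genes, which belonged to Rbl1, E2f2, E2f3 and E2f7, and in 744 of all 32851 windows in the table (2.26%). Among genes listed as G1/S targets of E2F, 12 of 28 windows held it (42.9%). The windows of E2f1 and E2f8 had no match, and they lay 466 and 477 bases inside the annotated gene, so they cover an internal start. No match says only that these letters are absent from the window searched.

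The 250 bases before the start are shown for Rbl1 and Rbl2, the pocket protein genes that differ in whether the site is present, and for E2f3 and E2f7. Each is written 5′ to 3′ on the strand of the gene, with the E2F site in capitals and the rest in lower case. Rbl1 (chr2:157204535-157204784, minus strand) holds TTTCGCGC from 18 to 11 bases before its start. E2f3 (chr13:29986064-29986313, minus strand) holds TTTCCCGC on the reverse strand from 11 to 4 bases before the start, where it reads GCGGGAAA, and E2f7 (chr10:110745189-110745438, plus strand) the same letters from 198 to 191 bases before. Rbl2 (chr8:91069807-91070056, plus strand) has none of the 4 spellings. In E2f2 the site TTTGGCGC lay past the start, from base 40 to base 47 of the transcribed side, and only its surroundings are shown (chr4:136172294-136172323, plus strand).
Rbl1: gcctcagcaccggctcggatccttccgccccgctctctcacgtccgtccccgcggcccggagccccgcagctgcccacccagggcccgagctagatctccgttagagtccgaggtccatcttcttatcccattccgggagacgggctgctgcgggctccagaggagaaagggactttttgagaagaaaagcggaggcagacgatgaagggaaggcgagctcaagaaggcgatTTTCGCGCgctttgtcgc
Rbl2: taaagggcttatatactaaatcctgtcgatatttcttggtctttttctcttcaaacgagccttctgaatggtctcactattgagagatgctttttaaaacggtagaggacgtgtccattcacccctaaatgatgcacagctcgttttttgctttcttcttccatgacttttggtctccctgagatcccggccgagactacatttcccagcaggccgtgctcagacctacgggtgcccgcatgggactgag
E2f3: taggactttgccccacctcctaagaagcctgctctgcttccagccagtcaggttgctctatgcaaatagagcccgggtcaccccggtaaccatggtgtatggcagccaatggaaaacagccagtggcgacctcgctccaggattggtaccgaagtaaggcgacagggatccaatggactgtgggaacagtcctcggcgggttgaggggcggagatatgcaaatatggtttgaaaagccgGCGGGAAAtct
E2f7: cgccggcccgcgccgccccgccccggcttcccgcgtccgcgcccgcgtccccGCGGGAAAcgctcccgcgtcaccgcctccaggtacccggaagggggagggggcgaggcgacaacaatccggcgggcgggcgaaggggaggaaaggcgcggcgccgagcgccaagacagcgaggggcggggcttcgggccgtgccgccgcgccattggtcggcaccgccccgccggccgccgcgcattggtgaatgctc
E2f2: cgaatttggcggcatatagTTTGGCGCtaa

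A second element, the CHR (TTTGAA on either strand), is known from genes repressed by DREAM until late in the cycle. It was present in 4 of the 9 windows of the family, those of E2f3, E2f8, Rbl2 and an internal start of E2f2, and in 5878 of all windows (17.9%). It did not overlap an E2F site in any of them. Listed G2/M targets of DREAM held it in 7 of 11 windows (63.6%) and listed G1/S targets in 1 of 28 (3.57%). These matches are descriptions of sequence and not of binding.

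The arrays were alike in scale, with medians from 6.72 to 6.79. Sufu read 8.82 to 9.03 in wildtype and 7.99 to 8.14 in SufuKO, which is lower, as its label says. In the tumours it was higher than in wildtype, at 9.81 to 9.92. Ptch1 read 10.25 to 10.28 in wildtype, 10.16 to 10.25 in SufuKO and 11.17 to 11.43 in the tumours. Its deleted part is not stated, so the Ptch1KO label is not checked by these values. Xist, the RNA of the inactive X chromosome, read 11.59 to 11.97 on 5 arrays, the 3 of wildtype and 1 of each mutant group, and 5.55 to 5.83 on the other 4. The groups thus differed in how many arrays had high Xist. With the Xist level as a covariate E2f3 in SufuKO also passed, and no other member's call changed. On the leading principal component tumour replicate 3 (26.1) stood closer to the other groups than replicates 1 (41.3) and 2 (39.9) did, and values without it are given where they matter.

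The comparison of SufuKO with wildtype cerebellum asks how this switch stands where RNA of the Hedgehog restraint Sufu read 1.86-fold lower in whole tissue. E2f1, E2f2, E2f7, E2f8 and Rbl1 rose, 0 of the 10 fell, and the other 5 did not pass the test. For scale, 13% of all tested genes were called higher and 12.4% lower by the same limma fit at an adjusted p under 0.05. The family had a median log2 difference of 0.39, against -0.01 for all tested genes. At an unadjusted p under 0.05, 6 members were higher and 0 lower in the limma fit. The 5 genes that rose were also those with every SufuKO array above every wildtype array, which 21.3% of all tested genes showed. In RNA of whole tissue more cells of a type and more RNA per cell cannot be told apart.

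In the tumours labelled Ptch1KO most of the family was higher. Set against wildtype, 8 of the 10 genes rose, 0 fell, and E2f4 and Rbl2 did not pass the test, beside 22.1% of all tested genes called higher and 24.7% lower. The median of the family was 0.77 and that of all tested genes -0.01 (log2 difference). No member had an unadjusted p under 0.05 for a fall in limma (0 of 10). The same 8 genes had every tumour array above every wildtype array, against 26.4% of all tested genes. Both mutant groups were set against the same 3 wildtype arrays, so these 2 comparisons are not independent of each other.

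Set directly against SufuKO cerebellum, the tumours were higher for E2f1, E2f2, E2f5, E2f7, E2f8 and Rbl1 (6 of 10), beside 12.2% of all tested genes called higher and 17.5% lower. The same 6 had every tumour array above every SufuKO array, against 16.1% of all tested genes. None of the family was lower (0 of 10 in limma, also at an unadjusted p under 0.05), and 7 were higher at that unadjusted threshold. In 5 genes, namely E2f1, E2f2, E2f7, E2f8 and Rbl1, all wildtype arrays lay below all SufuKO arrays and these below all tumour arrays. Among all tested genes 8.60% showed this order.

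**Figure D1:**
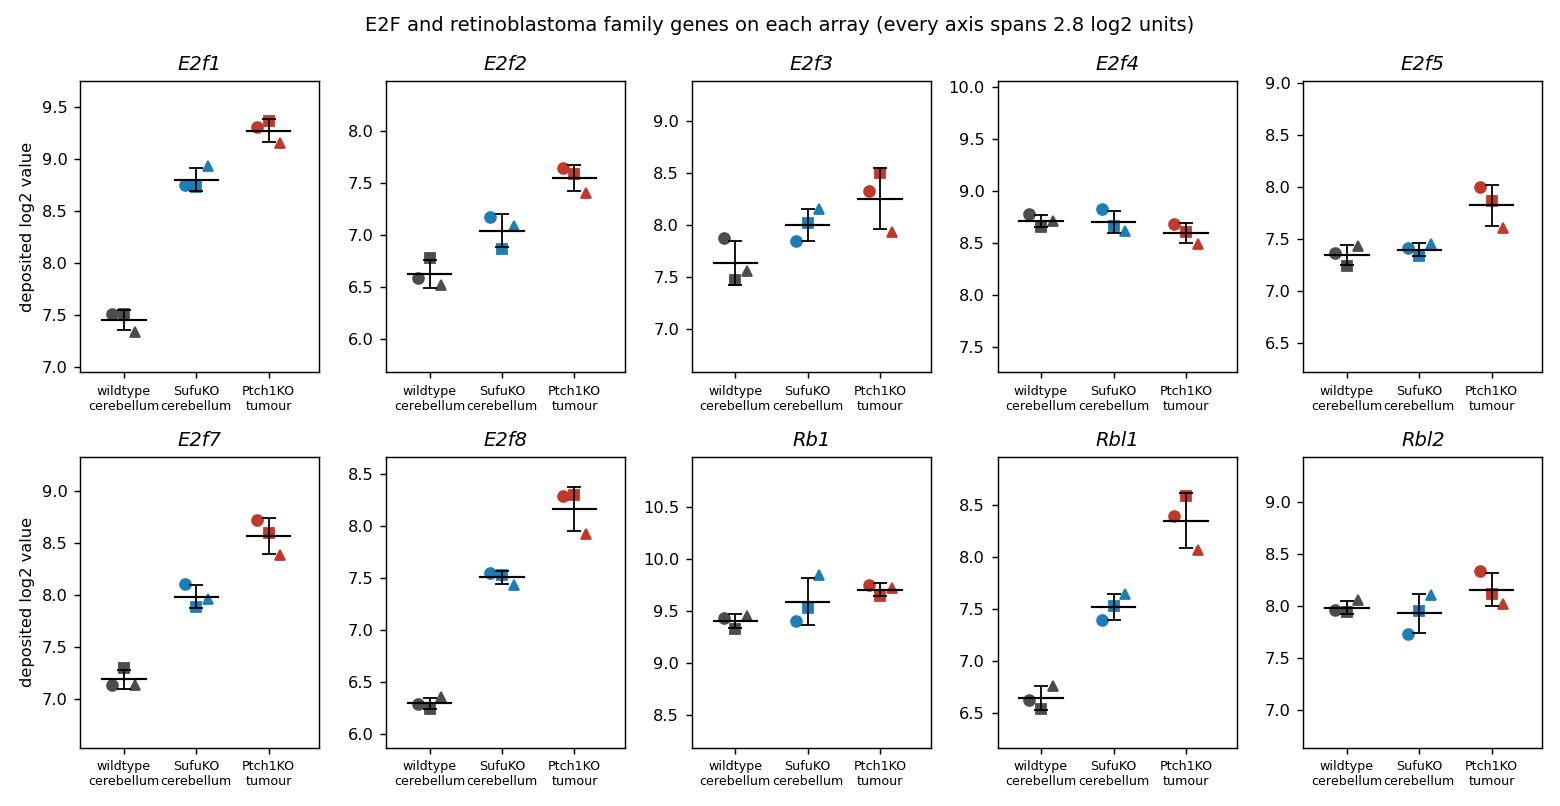
Deposited log2 value (vertical axes, arbitrary array units) of the 10 genes on each of the 9 arrays by group. Points are arrays (circle, square and triangle for replicates 1, 2 and 3), and bars are the mean and SD of 3 arrays. E2f1, E2f2, E2f7, E2f8 and Rbl1 climb in steps without overlap, whereas the groups overlap for E2f4 and Rbl2.

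Among the activators, E2f1, the factor most closely tied to entry into S phase, changed most. Its probe set (10488785) read 7.51, 7.51 and 7.34 in wildtype, 8.75, 8.73 and 8.93 in SufuKO, and 9.31, 9.36 and 9.15 in the tumours. The groups stood apart from each other on every array, with a spread within groups (SD) of 0.10 to 0.11. The rise was 2.55-fold in SufuKO (log2 difference 1.35 ± 0.08, moderated SE, 3 arrays a group, limma adjusted p = 1.46e-06) and, in the tumours, 3.53-fold (1.82 ± 0.08, adjusted p = 1.50e-08). The tumours were 1.38-fold above SufuKO (0.47 ± 0.08, adjusted p = 0.00110).

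E2f2, an activator that acts alongside E2f1 in dividing cells, moved less. The values were 6.59, 6.78 and 6.52 in wildtype, 7.17, 6.87 and 7.09 in SufuKO, and 7.65, 7.59 and 7.41 in the tumours (probe set 10509168). Wildtype was the dim group, with 2 of its 3 arrays below the array median, where a fold may be understated. E2f2 rose 1.33-fold in SufuKO (0.42 ± 0.10, SE, limma adjusted p = 0.00855) and, in the tumours, 1.89-fold (0.92 ± 0.10, adjusted p = 7.91e-06), and the tumours exceeded SufuKO by 0.50 ± 0.10 log2 units (adjusted p = 0.00203). With array weights the SufuKO difference was 0.24 (adjusted p = 0.0114), in a range of adjusted p over its alternatives from 0.00558 to 0.0408.

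E2f3, the activator needed for the bulk of E2F activity in many dividing cells, had the widest spread of the activators. It read 7.87, 7.47 and 7.55 in wildtype, 7.84, 8.02 and 8.15 in SufuKO, and 8.33, 8.50 and 7.93 in the tumours (probe set 10408477). SufuKO overlapped both of the other groups, while every tumour array lay above every wildtype array. The rise in the tumours was 1.54-fold (0.62 ± 0.14, SE, limma adjusted p = 0.00304). In SufuKO the difference was 0.37 ± 0.14 (95% confidence interval 0.06 to 0.68, adjusted p = 0.0788), and between tumours and SufuKO 0.25 ± 0.14 (interval -0.06 to 0.56, adjusted p = 0.236).

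The SufuKO result for E2f3 stood close to the threshold. It passed without wildtype replicate 1 (0.49, adjusted p = 0.0363), without tumour replicate 3, which changes only the shared spread (adjusted p = 0.0309), in a fit of those 2 groups alone (adjusted p = 0.0421), with array weights (adjusted p = 0.00497) and with Xist as a covariate (0.56, adjusted p = 0.0171). Over all alternatives the adjusted p ran from 0.00497 to 0.257. Without tumour replicate 3 the tumours also passed against SufuKO (0.41, adjusted p = 0.0287), as they did with array weights (0.32, adjusted p = 0.0118), and without tumour replicate 2 the difference was 0.13 (adjusted p = 0.633, the highest of its alternatives). A dimmer second probe set of E2f3 (10408475) stayed within 7.28 to 7.66 on all 9 arrays. Its log2 difference was 0.07 ± 0.10 in SufuKO (interval -0.15 to 0.29) and 0.10 ± 0.10 in the tumours (interval -0.11 to 0.32). It passed in neither comparison, and the difference between the probe sets was not tested. With the mean of both probe sets E2f3 differed by 0.22 in SufuKO (adjusted p = 0.199) and by 0.36 in the tumours (adjusted p = 0.0207). Array weights, used here and for Rbl2 and Rb1 below, called more of all tested genes. In SufuKO 3712 were called higher against 2122 in the main fit, and between tumours and SufuKO 3699 against 1991.

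The DP-dependent repressors E2f4 and E2f5 did not pass the test in SufuKO. E2f4, the repressor that partners p130 in resting cells, read 8.78, 8.66 and 8.71 in wildtype, 8.82, 8.67 and 8.62 in SufuKO, and 8.69, 8.61 and 8.50 in the tumours (probe set 10574682). The groups overlapped in every comparison. Its log2 difference was -0.01 ± 0.08 in SufuKO (SE, interval -0.18 to 0.16, limma adjusted p = 0.943), and -0.12 ± 0.08 in the tumours (interval -0.29 to 0.05, adjusted p = 0.253). A rise in the tumours of more than 0.05 log2 units lies outside that interval.

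E2f5, the repressor that partners p130 and p107, separated the 2 mutant groups. Its values were 7.36, 7.24 and 7.43 in wildtype, 7.41, 7.33 and 7.45 in SufuKO, and 8.0, 7.86 and 7.60 in the tumours (probe set 10490894). Wildtype and SufuKO lay in the same range, with all 3 tumour arrays above both. In SufuKO the difference was 0.05 ± 0.10 (SE, interval -0.16 to 0.26, limma adjusted p = 0.766). The tumours were 1.39-fold above wildtype (0.48 ± 0.10, adjusted p = 0.00121) and 1.34-fold above SufuKO (0.42 ± 0.10, adjusted p = 0.00498).

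The atypical repressors E2f7 and E2f8 rose with E2f1. E2f7 read 7.14, 7.29 and 7.13 in wildtype, 8.10, 7.88 and 7.96 in SufuKO, and 8.72, 8.60 and 8.38 in the tumours (probe set 10366277). No group overlapped another. The rise was 1.73-fold in SufuKO (0.79 ± 0.09, SE, limma adjusted p = 9.71e-05) and, in the tumours, 2.60-fold (1.38 ± 0.09, adjusted p = 2.15e-07), with a step of 0.58 ± 0.09 between the mutants (adjusted p = 0.000566).

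E2f8 showed the largest log2 difference of the family in the tumours. It read 6.29, 6.24 and 6.35 in wildtype, 7.55, 7.53 and 7.43 in SufuKO, and 8.28, 8.29 and 7.92 in the tumours (probe set 10563780). All 3 wildtype arrays were below the array median and all 6 mutant arrays above it. E2f8 rose 2.32-fold in SufuKO (1.21 ± 0.10, SE, limma adjusted p = 5.65e-06) and, in the tumours, 3.67-fold (1.87 ± 0.10, adjusted p = 2.70e-08), and the tumours were 1.58-fold above SufuKO (0.66 ± 0.10, adjusted p = 0.000263).

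Of the pocket protein genes, Rbl1 rose in both mutants, Rb1 in the tumours, and Rbl2 did not pass the test in either. Rbl1 encodes p107, the pocket protein typical of cycling cells. Its probe set (10489127) read 6.63, 6.54 and 6.76 in wildtype, 7.39, 7.53 and 7.64 in SufuKO, and 8.40, 8.59 and 8.06 in the tumours. Each group stood clear of the others, and 2 wildtype arrays were below the array median. Rbl1 rose 1.84-fold in SufuKO (0.88 ± 0.12, SE, limma adjusted p = 0.000254) and, in the tumours, 3.27-fold (1.71 ± 0.12, adjusted p = 2.51e-07). Between tumours and SufuKO it had the largest step of the 10 genes, 1.78-fold (0.83 ± 0.12, adjusted p = 0.000272).

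Rbl2 encodes p130, the pocket protein typical of resting cells and of DREAM. It read 7.96, 7.94 and 8.06 in wildtype, 7.74, 7.95 and 8.11 in SufuKO, and 8.34, 8.12 and 8.02 in the tumours (probe set 10573867). The groups overlapped throughout, with the widest spread in SufuKO. The log2 difference was -0.06 ± 0.10 in SufuKO (SE, interval -0.28 to 0.17, limma adjusted p = 0.767), 0.17 ± 0.10 in the tumours (interval -0.05 to 0.40, adjusted p = 0.203) and 0.23 ± 0.10 between them (interval 0.00 to 0.45, adjusted p = 0.125). The last passed without SufuKO replicate 3 (0.32, adjusted p = 0.0347) and with array weights (0.25, adjusted p = 0.00561), and without tumour replicate 1 it was 0.14 (adjusted p = 0.427). These are the lowest and highest p over its alternatives. In the tumours against wildtype array weights gave 0.22 (adjusted p = 0.0417) and leaving out tumour replicate 1 gave 0.08 (adjusted p = 0.595), the ends of its range.

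Rb1, the retinoblastoma gene itself, changed little. Its values were 9.43, 9.32 and 9.45 in wildtype, 9.40, 9.53 and 9.85 in SufuKO, and 9.75, 9.64 and 9.72 in the tumours (probe set 10421526). Tumour arrays lay above wildtype arrays, and the SufuKO arrays spread across both. In the tumours it rose 1.23-fold (0.30 ± 0.10, SE, limma adjusted p = 0.0250), and the SufuKO difference was 0.19 ± 0.10 (interval -0.03 to 0.41, adjusted p = 0.207). The latter was 0.06 without SufuKO replicate 3 (adjusted p = 0.641) and 0.28 without SufuKO replicate 1 (adjusted p = 0.0558), the ends of its range.

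The tumour call for Rb1 rested on single arrays. It ended without wildtype replicate 2 (0.26, adjusted p = 0.0921), without tumour replicate 1 (0.28, adjusted p = 0.0793) or without tumour replicate 3 (0.29, adjusted p = 0.0576), and over all alternatives the adjusted p ran from 0.00305 to 0.0921. Between tumours and SufuKO the difference was 0.11 ± 0.10 (interval -0.10 to 0.33, limma adjusted p = 0.471). It passed without SufuKO replicate 3 (0.24, adjusted p = 0.0345) and with array weights (0.17, adjusted p = 0.0321), and was 0.02 without SufuKO replicate 1 (adjusted p = 0.908), the ends of that range being 0.0321 and 0.908.

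**Figure D2:**
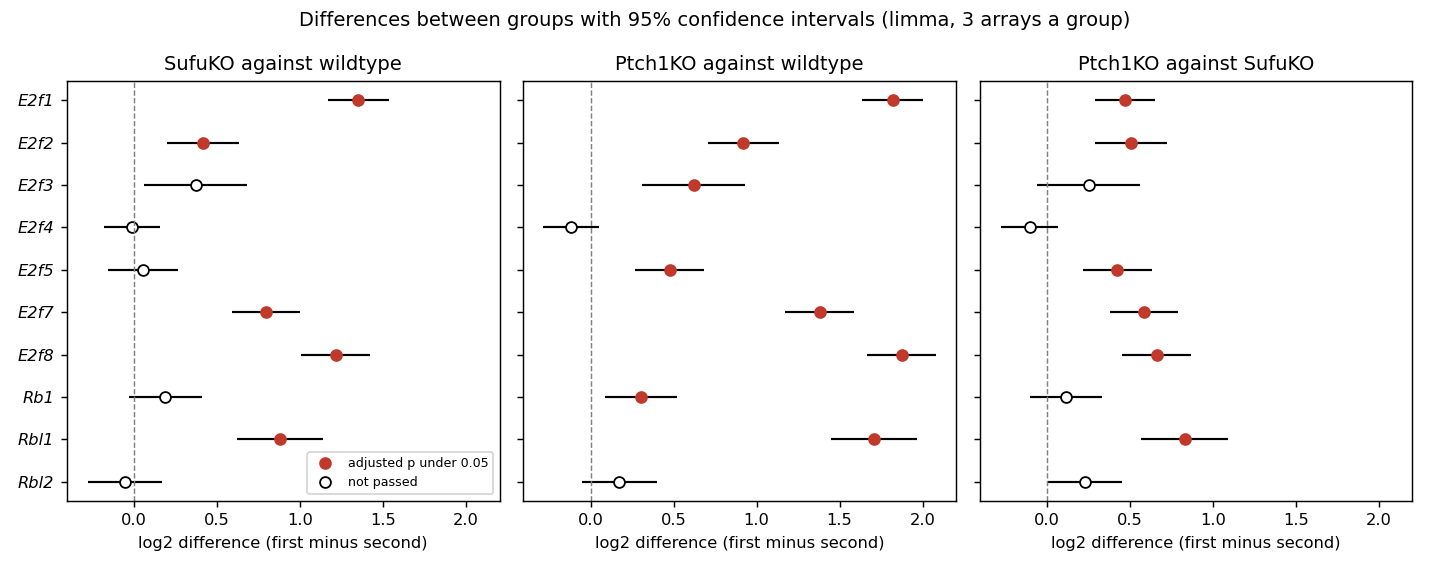
Log2 difference (horizontal axes) of each gene in the 3 comparisons, with 95% confidence intervals from limma, 3 arrays a group; filled points passed at an adjusted p under 0.05. E2f8 (1.87), E2f1 (1.82) and Rbl1 (1.71) lie farthest from 0 in the tumours, and E2f4 lies nearest to 0 in SufuKO (-0.01).

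Differences between members within an array show how unequally they changed. Those with Rbl1 may be understated, since 2 of its wildtype values lay below the array median. Rbl1 minus Rbl2 was -1.34 ± 0.05 (log2, SD, n = 3) in wildtype, -0.41 ± 0.06 in SufuKO and 0.19 ± 0.24 in the tumours. The mean of this difference moved by 0.93 log2 units in SufuKO and by 1.53 in the tumours. Rbl1 minus Rb1 moved by 0.69 and 1.40 in the same order. E2f1 minus E2f4 went from -1.26 ± 0.11 in wildtype to 0.10 ± 0.20 in SufuKO and 0.68 ± 0.07 in the tumours, a shift of 1.36 and then 1.94 toward the activator. The groups overlapped for E2f3 minus E2f5, at 0.29 ± 0.20, 0.60 ± 0.15 and 0.43 ± 0.18. These ratios are descriptions without a test, and the starting level of each depends on the probes.

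**Figure D3:**
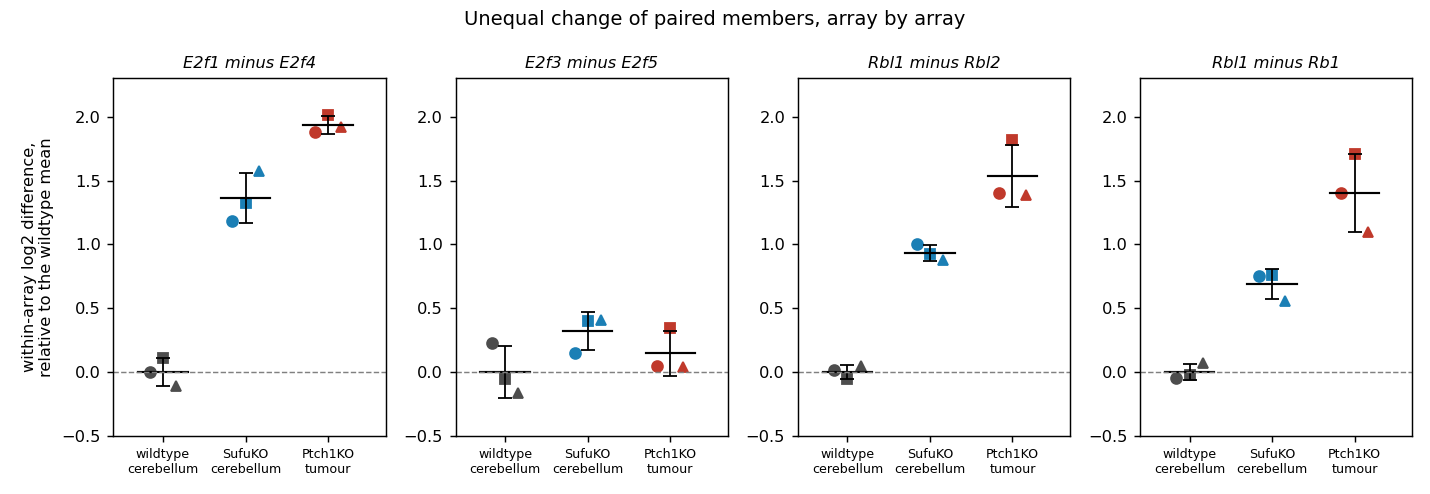
Difference between a pair of genes on the same array (log2, relative to the wildtype mean of that pair) for each of the 9 arrays by group; shapes mark replicates as above, and bars are the mean and SD. The pair of Rbl1 and Rbl2 and the pair of E2f1 and E2f4 separate the 3 groups without overlap, with mean gains in the tumours of 1.53 and 1.94, whereas E2f3 and E2f5 overlap.

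The genes moved together to different degrees over the 9 arrays. Pearson's r, which here mostly follows the 3 group means, was 0.99 between E2f7 and E2f8 and 0.98 between E2f1 and E2f8. Rbl1 followed E2f8 at 0.98. E2f4 had a negative r with each of the other 9 genes, from -0.27 with E2f3 to -0.60 with Rb1. Rbl2 reached its highest value with E2f5, at 0.76. The arrays share groups and scaling, so these coefficients only describe.

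Among all other tested genes with a regular symbol, those most like each member over the 9 arrays were found by Pearson's r. For Rbl1 they were Blm, a RecQ helicase that guards genome stability, and Sephs1, a selenophosphate synthetase family gene (both 0.998). E2f7 was nearest to Pidd1, a death domain protein, and to Mcm2, a subunit of the replicative helicase (0.996 and 0.995). For E2f8 they were Adgrg1, an adhesion receptor of neural progenitors, and Rcn1, a calcium-binding protein (0.998 and 0.997), and for E2f1 the nucleoside transporter gene Slc29a1 and the transcription factor gene Ebf3 (both 0.996). E2f2 was nearest to Rai1 and to the ribosome biogenesis gene Pes1 (0.993 and 0.989), E2f5 to Inka2 and Zbtb44 (0.986 and 0.980), and E2f3 to the acetyltransferase gene Kat2a and the RNA helicase gene Mtrex (0.971 and 0.967). The nearest genes of Rb1 were Rbm6 and Zfp945 (0.978 and 0.971), those of Rbl2 Cers5 and Pigu (0.979 and 0.963), and those of E2f4 Ccdc134 and Hoxa10 (0.943 and 0.942). All were picked as the highest r out of the tested genes on only 9 arrays, so a high r alone shows no link to the member.

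Replicate 3 was the lowest of the 3 tumour arrays for 7 of the 8 members that rose in the tumours, Rb1 being the exception. It was the lowest for 76.8% of all 3606 genes higher in the tumours. Without it the same comparison called 7 members, Rb1 dropping out. On this array the summed linear level of 5 granule neuron progenitor markers (Atoh1, Barhl1, Insm1, Mycn and Gli1) was 4556, the lowest of the tumours, and that of oligodendrocyte precursor markers (1993) was the lowest too. It was the highest of the tumours for Bergmann glia and astrocyte (5372), granule neuron (12776), GABAergic interneuron (1049), mature oligodendrocyte (1792), endothelial and pericyte (1547), meningeal (909) and red blood cell markers (215), and in between for Purkinje cell, microglia and choroid plexus markers. Whether these markers bear on the lower values was not tested.

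Markers of several cell types moved along with the family. The progenitor markers summed to 1070.5 to 1304 in wildtype, 2574 to 3009 in SufuKO and 4556 to 5968 in the tumours. Of the 5, 4 were called higher in SufuKO and 5 in the tumours. Gli1 was the exception in SufuKO, with a log2 difference of -0.12 that did not pass (limma adjusted p = 0.537). Its SufuKO values lay wholly under those of wildtype. In the tumours Gli1 rose by 1.81 (adjusted p = 1.76e-07). Granule neuron markers (6 genes, including Gabra6 and Cbln3) went from 19726 to 21212 in wildtype to 15422 to 17019 in SufuKO and 10467 to 12776 in the tumours, with 4 of 6 called lower in each. Purkinje cell markers (4 tested) went from 7643 to 8405 in wildtype to 4717 to 5164 and 1978 to 2095, all 4 called lower in both mutants. For scale, 13% of all tested genes were called higher and 12.4% lower in SufuKO, and 22.1% and 24.7% in the tumours. The part of the marker shifts in the E2F and pocket protein levels was not tested.

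Other cell types that could be sampled were read in the same way. The shares of all tested genes were again 13% higher and 12.4% lower in SufuKO, and 22.1% and 24.7% in the tumours. GABAergic interneuron markers summed to 3505 to 3714 in wildtype, 1867 to 2095 in SufuKO and 985 to 1049 in the tumours, with 4 and then 5 of 5 lower, and mature oligodendrocyte markers to 5199 to 6312, 3488 to 4414 and 1555 to 1792, with 4 of 4 lower in both. Bergmann glia and astrocyte markers summed to 8093 to 8472 in wildtype, 4506 to 4760 in SufuKO and 3751 to 5372 in the tumours, with 5 and then 4 of 5 lower. Microglia markers summed to 811 to 839 in wildtype, 887 to 1001 in SufuKO and 1133 to 1321 in the tumours. Of these 6 markers 1 was called higher in SufuKO, near the share of all tested genes, and 3 in the tumours. Oligodendrocyte precursor markers summed to 982 to 1083, 1090 to 1192 and 1993 to 2285, with 1 and then 2 of 4 higher and 2 and then 1 lower. The marker that rose in SufuKO was Pdgfra (log2 difference 1.14). Olig1 and Sox10 fell there (-0.52 and -0.49), Cspg4 read -0.01, and the list median was -0.25. Endothelial and pericyte markers (4 and then 5 of 5 lower), meningeal markers (4 and then 2 of 4 lower), red blood cell markers (0 and then 1 of 2 lower) and choroid plexus markers (3 and then 2 of 4 higher) completed the check. The choroid plexus sums varied widely between arrays and overlapped, at 657 to 1820 in wildtype, 852 to 4544 in SufuKO and 1600 to 2877 in the tumours. Ttr, a marker of that list, did not pass in either mutant. No marker was listed at 0 on any array, but the lowest deposited value was 3.04, so this says nothing about detection.

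Both DP genes rose in the mutants. Tfdp1, the main DP partner, read 9.08 in wildtype, 9.42 in SufuKO and 9.80 in the tumours (group means), and rose by 0.34 and 0.72 (limma adjusted p = 0.0105 and 1.63e-05). Tfdp2, a further DP gene, rose by 0.47 and 0.58 (adjusted p = 0.0133 and 0.00155). E2f6, a pocket-independent repressor, did not pass, at 0.14 and 0.25 (adjusted p = 0.469 and 0.127). These 3 are the whole list, and without wildtype replicate 2 neither DP gene passed in SufuKO (0 of 3). Of all tested genes 13% were called higher in SufuKO and 22.1% in the tumours.

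Of the 8 genes of the MuvB core and of the factors that replace its repressor partners late in the cycle, 6 rose in SufuKO (median 0.48) and 6 in the tumours (median 0.79). Among all tested genes 13% and 22.1% were called higher in the same comparisons. Foxm1, the activator of G2/M genes, went from 5.90 in wildtype to 7.72 and 8.51 (differences 1.82 and 2.61, limma adjusted p = 7.19e-06 and 5.90e-08). Mybl1, a Myb family gene, rose by 0.73 and 1.53, and Mybl2, the B-Myb gene, by 0.51 and 1.21. The tumours exceeded SufuKO by 0.80 for Mybl1 and 0.70 for Mybl2 (adjusted p = 0.000460 and 0.000325). The core genes Lin9, Lin54 and Rbbp4 rose by 0.39 to 0.51 in SufuKO. Lin37 and Lin52, core subunits too, read -0.10 and -0.16 there and did not pass. For Lin52 the unadjusted p in limma was 0.0341, and with array weights 1 gene of this list was called lower in SufuKO. Lin37 fell in the tumours (-0.25, adjusted p = 0.0199), a call that ended without wildtype replicate 1 or tumour replicate 3.

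Among genes of the cyclins and kinases that inactivate pocket proteins, 7 of 8 were higher in the tumours than in SufuKO. The share of all tested genes called higher was 12.2%. Against wildtype that share was 13% in SufuKO and 22.1% in the tumours. In SufuKO 4 of 8 passed, all higher (Ccnd2, Cdk6, Cdk2 and Cdk4), and in the tumours all 8 rose; array weights gave 7 in SufuKO. Cdk6, a partner of D cyclins, read 6.96, 8.97 and 11.04 in the 3 groups (means), and Ccnd2, a D cyclin of granule neuron progenitors, 8.99, 11.17 and 11.50. Ccnd1, another D cyclin and Hedgehog target, had a difference of 0.31 in SufuKO that did not pass (limma adjusted p = 0.0889), and the tumours exceeded SufuKO by 1.32 (adjusted p = 2.06e-05). Of their inhibitors 2 of 6 rose in each mutant: Cdkn2c, the Ink4 inhibitor p18, by 0.86 and 1.65, and Cdkn1b, the Kip inhibitor p27, by 0.44 and 0.39 (adjusted p = 0.000813 and 0.000521). The other 4, Cdkn1c, Cdkn2a, Cdkn2b and Cdkn2d, lay between -0.08 and 0.11 in both and did not pass. Cdkn1a, a further listed inhibitor, had no probe set of its own and was not read. With the mean over probe sets 1 of the 6 inhibitors rose in each mutant. These counts of inhibitors are small and were not tested against the share of all tested genes.

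Of the corepressors that pocket proteins recruit, 4 of 10 rose in SufuKO and 1 fell, with a median of 0.22, and in the tumours 8 rose and 1 fell, with a median of 0.47. The 4 became 2 without wildtype replicate 2 or SufuKO replicate 2. For all tested genes the shares were 13% higher and 12.4% lower in SufuKO, and 22.1% and 24.7% in the tumours. Hdac2, a histone deacetylase, rose by 0.65 and 1.02, and Dnmt1, the maintenance DNA methyltransferase, by 0.59 and 1.12 (limma adjusted p = 0.000108 and 0.000435 in SufuKO). The others that rose in SufuKO were Smarca4, the BRG1 ATPase gene (0.23), and the histone demethylase gene Kdm5a (0.24, adjusted p = 0.0255 and 0.0390). The gene that fell was Smarca2, the BRM ATPase of the BAF complex, at -0.26 in SufuKO and -0.90 in the tumours (adjusted p = 0.0342 and 1.93e-06). Its SufuKO call ended when any wildtype replicate or SufuKO replicate 1 was left out, and with Xist as a covariate. A list of 4 genes tied to the turnover of E2F proteins holds genes of opposite roles, and all 4 rose in both mutants. Ccnf, the cyclin F gene, rose by 0.99 and 1.56, Skp2 by 0.58 and 1.32, and Fzr1, an activator of the anaphase-promoting complex, by 0.32 and 0.38. Fbxo5, the gene of the Emi1 protein that inhibits that complex, rose by 1.10 and 2.07.

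Targets of the family rose broadly in both mutants. Of 28 tested G1/S targets 25 rose in SufuKO, with a median of 0.96, and 28 in the tumours, with a median of 1.72. The 3 that did not pass in SufuKO were Ccne1, Ccne2 and Cdc25a (0.12, 0.28 and 0.22). Mcm7 and Mcm5, helicase subunits, stood at 7.40 and 7.51 in wildtype, 9.11 and 8.78 in SufuKO, and 10.04 and 9.77 in the tumours (means). All 14 tested G2/M targets of DREAM rose in both, with medians of 1.73 and 2.68, among them Mki67, the marker of dividing cells (2.63 and 3.56 above wildtype), Cenpe, a kinetochore motor (means 5.43, 7.16 and 8.20), and Plk1, a mitotic kinase that differed by 0.97 between tumours and SufuKO (limma adjusted p = 5.26e-05). Against SufuKO the tumours were higher for 27 of the G1/S and all 14 of the G2/M genes. The medians over all tested genes were -0.01 in the 3 comparisons. Of those genes 13% were called higher in SufuKO, 22.1% in the tumours and 12.2% in the tumours against SufuKO.

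Of 5 tested targets tied to cell death, 2 rose in SufuKO and 1 in the tumours, where 13% and 22.1% of all tested genes were called higher. Apaf1, the scaffold of the apoptosome, rose by 0.57 in SufuKO and 0.99 in the tumours (limma adjusted p = 0.000997 and 2.88e-06). Trp73, the gene of the p53 relative p73, rose by 0.33 in SufuKO (adjusted p = 0.00883) and read -0.06 in the tumours (adjusted p = 0.590), where it was below SufuKO by 0.39 log2 units (difference -0.39, adjusted p = 0.00246). Bcl2l11, Pmaip1 and Bbc3, members of the Bcl2 family that promote death, lay between -0.12 and 0.25 in both and did not pass. The count in the tumours was 2 without tumour replicate 3 or with array weights. None of the 5 was called lower against wildtype in either mutant (0 also at an unadjusted p under 0.05 in limma).

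**Figure D4:**
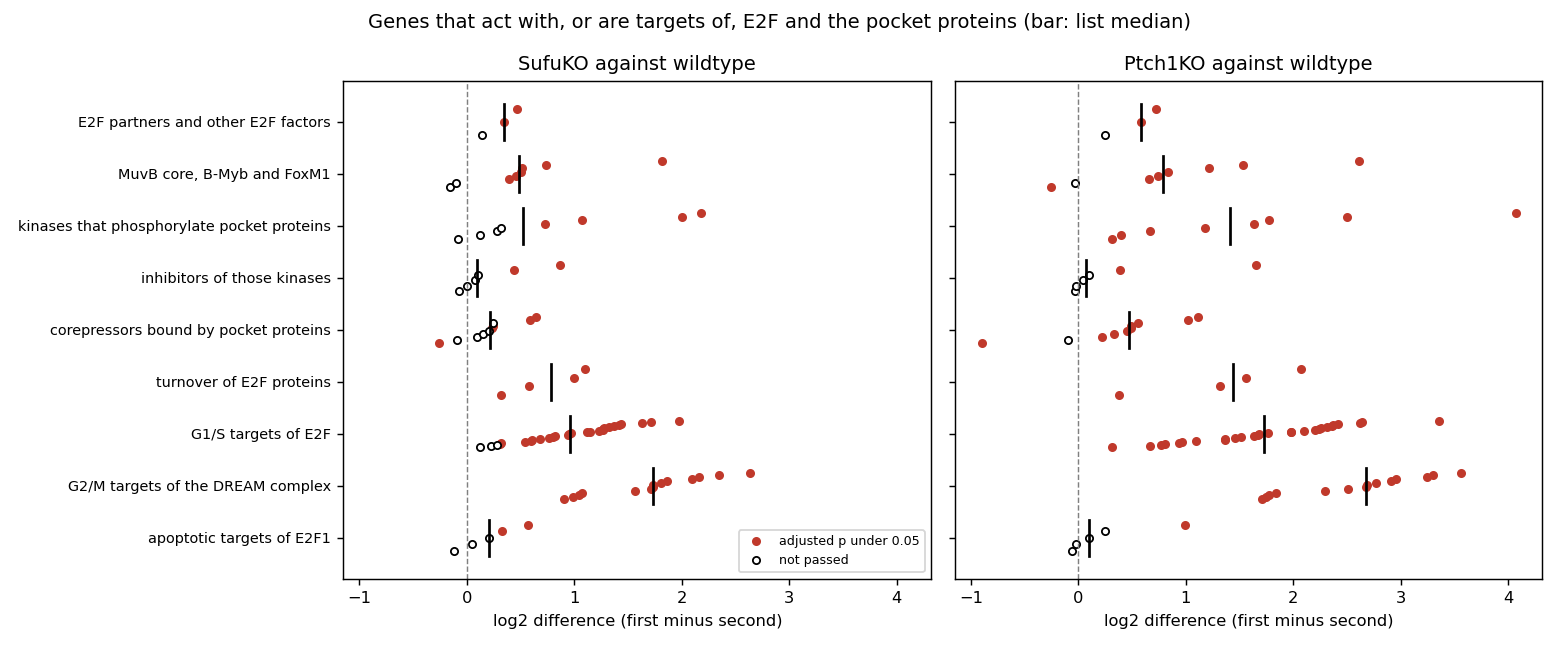
Log2 difference from wildtype (horizontal axes) of each tested gene in 9 lists of partners, regulators and targets of E2F and the pocket proteins, in SufuKO (left) and in the tumours (right); filled points passed at an adjusted p under 0.05 and bars are list medians. The list of G2/M targets has the highest medians (1.73 and 2.68), and the inhibitors of the kinases lie around 0 apart from Cdkn2c and Cdkn1b.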

How the data were processed

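The authors deposited log2 expression values of 35556 probe sets for 9 Affymetrix Mouse Gene 1.0 ST arrays. That they are log2 was read from their range (3.04 to 13.8). How background, normalization and summary were handled is not given in the sources used here. Every column was used (0 left out), and no 2 arrays were identical. The number of arrays limits precision. Groups and replicate numbers came from the sample titles. Probe sets were named with the platform annotation and RefSeq (GRCm38.p6): 21789 had 1 symbol, 1621 several and 12146 were not listed. A gene was tested if it exceeded the 25th percentile of the array on 3 or more arrays. The test was that of limma 3.58.1 (R 4.3.3), with 1 mean per group over all 9 arrays, empirical Bayes and Benjamini-Hochberg adjustment over the 16323 genes (2-sided, threshold 0.05). The second E2f3 probe set was fitted over all 21789 single-gene probe sets. The script was tested on simulated data. Folds and summed marker levels were taken after undoing the log2. The members and lists were chosen with earlier results of these data known. All members are named, as are the 2 genes most like each member by Pearson's r. In the lists of partners, regulators and targets, the 2 genes with the smallest p in a comparison are named. So are the genes called in the printed counts of 5 or fewer, and a few further genes chosen after their values were seen. Of the cell type markers only some are named. Alternatives were the samples fitted, a replicate block, each array left out, 2 filters, 2 normalizations, a trended prior, array weights, an Xist covariate and the mean over probe sets.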

Additional observations from a re-analysis of the deposited data

How the results depend on the processing

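The counts of members called higher (5 in SufuKO, 8 in the tumours against wildtype, 6 in the tumours against SufuKO) ran from 5 to 6, 7 to 8 and 6 to 8 when each array was left out in turn, and from 5 to 6, 8 to 9 and 6 to 9 under the other alternatives; 0 members were called lower under any of them. Of 570 recomputed member differences 555 kept their direction and their side of the threshold, or stayed uncalled, 12 newly passed and 3 no longer passed. Those 15 concern E2f3, Rb1 and Rbl2, and their values stand beside those genes. Arrays of the same replicate number in different groups had correlations of their deviations from the group means from -0.31 to 0.35, over 0.1 in 2 of 9 pairs, so the numbers were not taken to pair samples; with the replicate block the counts were 5, 8 and 6, and no member's call changed. The number of all tested genes called moved more: array weights, whose fit stopped before its tolerance was reached, gave 3712 higher and 3706 lower in SufuKO, against 2122 and 2028, and 3699 and 4448 between the mutants, against 1991 and 2855. Counts in the lists of partners, regulators and targets were recomputed in the same way after the data were seen. They moved by over 1.5 times, or to or from 0, in 25 of 1026 cases. Levels near or below the array median (wildtype E2f2, E2f8 and Rbl1) lack a detection call, which limits how far their folds can be read.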
